A study of Homo sapiens with 36 samples.

Results

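10 genes that license, prime and feed DNA replication were followed through a panel of 36 human B-cell lymphoma lines: MCM2, MCM3, MCM4, MCM5, MCM7, PCNA, RRM2, E2F1, CCNE1 and CCNE2. They were taken by symbol from the deposited table of counts, where all 10 of the 10 symbols were found among 2549 genes. Targeted RNA-Seq of cell lysates gave 1 library for each line, and the labels say that samples were run as singletons. For a difference between single lines only counting error can therefore be given, and variation between cultures or libraries of a line is not known. Each line is 1 established culture standing for a type of lymphoma.

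Only line names are given in the labels, so each line was assigned a lymphoma type from general knowledge of these established lines. The group of germinal centre B-cell-like (GCB) diffuse large B-cell lymphoma and related lines held 14 lines: DB, DOHH2, KARPAS422, OCILY1, OCILY7, OCILY8, OCILY18, OCILY19, SUDHL4, SUDHL6, SUDHL10, SUDHL16, TOLEDO and WSU_DLCL2. Activated B-cell-like (ABC) diffuse large B-cell lymphoma was represented by 5 lines: HBL1, RIVA, SUDHL2, TMD8 and U2932. Mantle cell lymphoma (MCL) was represented by 9 lines: GRANTA519, JEKO1, JVM2, MAVER1, MINO, REC1, SP49, SP53 and UPN1. A joint group of marginal zone lymphoma and hairy cell leukaemia (MZL/HCL) held 5 lines: HAIR_M, HC_1, KARPAS1718, SSK41 and VL51. FARAGE and RCK8 are diffuse large B-cell lines left outside the subtypes, and MEC1 was the 1 line from chronic lymphocytic leukaemia. No treatment is named in the labels for any line.

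The MCM2-7 proteins form a ring-shaped helicase that is loaded on origins in G1, which licenses them, and that unwinds DNA once S phase starts. PCNA is the sliding clamp that holds the polymerases on the template, and RRM2 is the regulated small subunit of ribonucleotide reductase, which makes deoxyribonucleotides. E2F1 is a transcription factor held back by RB until cyclin-dependent kinases act in late G1, and the other genes described here are textbook E2F targets. CCNE1 and CCNE2 encode the E-type cyclins that activate CDK2 at the entry to S phase. Genes of this kind are used as marks of proliferation in B-cell lymphoma.

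Promoter sequences are shown first because E2F control is the feature by which these genes are usually grouped. The RefSeq table of promoters (GRCh38.p14, from 250 bases before the start site to 50 bases from it) held 11 promoters for 7 of the 10 genes. MCM4, MCM5 and CCNE2 are not shown. The 4 E2F-like words, TTTCCCGC, TTTCGCGC, TTTGCCGC and TTTGGCGC, were searched on both strands, and overlapping matches were kept. At least 1 word stood in 5 of the 11 promoters, which belong to MCM2, MCM3, MCM7, PCNA and E2F1, against 3.31% of all 35116 promoters of the same length. By word, the share of all promoters was 1.63% for TTTCCCGC, 0.515% for TTTCGCGC, 0.607% for TTTGCCGC and 0.652% for TTTGGCGC. The windows below run 5′ to 3′ over the 120 bases before the start site and the first 30 bases from it, with the matched words in capitals.
MCM2 promoter, chr3:127598291-127598440, plus strand: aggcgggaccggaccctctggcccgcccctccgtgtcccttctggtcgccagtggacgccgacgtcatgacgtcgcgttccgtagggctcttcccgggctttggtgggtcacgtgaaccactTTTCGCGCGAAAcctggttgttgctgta
MCM3 promoter, chr6:52284713-52284862, minus strand: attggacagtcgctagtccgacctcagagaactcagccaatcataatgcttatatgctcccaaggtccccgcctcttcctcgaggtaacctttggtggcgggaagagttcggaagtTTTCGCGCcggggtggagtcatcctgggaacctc
MCM7 promoter, chr7:100101368-100101517, minus strand: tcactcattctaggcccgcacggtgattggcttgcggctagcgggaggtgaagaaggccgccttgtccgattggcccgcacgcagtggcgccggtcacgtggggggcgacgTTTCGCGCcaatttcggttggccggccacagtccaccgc
PCNA promoter, chr20:5126593-5126742, minus strand: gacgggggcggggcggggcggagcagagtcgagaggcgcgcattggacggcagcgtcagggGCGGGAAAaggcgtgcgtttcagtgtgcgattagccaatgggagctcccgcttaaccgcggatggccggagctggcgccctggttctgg
E2F1 promoter, chr20:33686356-33686505, minus strand: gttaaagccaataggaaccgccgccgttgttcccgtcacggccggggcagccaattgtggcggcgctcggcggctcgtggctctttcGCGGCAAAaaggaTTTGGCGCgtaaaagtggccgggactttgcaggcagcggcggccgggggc
RRM2 promoter, chr2:10122619-10122768, plus strand: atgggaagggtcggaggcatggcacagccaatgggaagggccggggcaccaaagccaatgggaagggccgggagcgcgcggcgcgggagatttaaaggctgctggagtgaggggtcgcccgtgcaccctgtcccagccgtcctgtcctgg
In MCM2 the word TTTCGCGC began at base 3 counted from the start site, and its reverse complement overlapped it from base 7, so that the capitals form a palindrome. MCM3 and MCM7 held the same TTTCGCGC just before the start, beginning at -4 and at -9, and each also held TTTCCCGC farther upstream, from -174 in MCM3 and, on the opposite strand, from -187 in MCM7. PCNA held TTTCCCGC on the opposite strand from -59. E2F1 held TTTGCCGC on the opposite strand from -33 and TTTGGCGC from -20. The RRM2 window is shown because RRM2 had the steepest slope on E2F1 below: these letters were in neither of its promoters, which says nothing of E2F binding there. The RRM2 promoter shown held 3 CCAAT words, counted on both strands, as did those shown of MCM3, MCM7, PCNA and E2F1, against 3.26% of all promoters with at least 3. The MCM2 promoter held 0 CCAAT words. The CCNE1 promoter, not shown, held 0 CCAAT words and 0 E2F-like words. The other RRM2 promoter and the other MCM7 promoters held 1 CCAAT word each, and the other PCNA promoter held 2.

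The genes lie on several chromosomes in GENCODE release 29 (GRCh38). MCM2 spans chr3:127598223-127622436 on the plus strand, MCM3 chr6:52264009-52284881 on the minus strand and MCM5 chr22:35400063-35425430 on the plus strand. MCM7 spans chr7:100092728-100101940 on the minus strand, and the MIR25, MIR93 and MIR106B hairpins lie within it. PCNA and E2F1 share chromosome 20, at chr20:5114953-5126626 and chr20:33675683-33686404, both on the minus strand. RRM2 lies at chr2:10120698-10131419 and CCNE1 at chr19:29811898-29824308, both on the plus strand, while MCM4 and CCNE2 are on chromosome 8. The annotation names 3 pseudogenes after PCNA (PCNAP1, PCNAP3, PCNAP4) and 3 after RRM2 (RRM2P2, RRM2P3, RRM2P4). Genes on the opposite strand overlap MCM2 (TPRA1), MCM7 (AP4M1) and CCNE2 (INTS8, NDUFAF6). Whether reads could be shared with them depends on the targeted stretch, which is not given in the sources used here.

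Library totals over the 2549 genes lay between 6422917 counts in HAIR_M and 13451527 in SUDHL6, with a median of 10476681. Levels are given as CPM (counts scaled to library size) after TMM scaling, and each gene is compared between lines only, since each target has its own capture efficiency. TMM factors were lowest in OCILY8 (0.602) and highest in MEC1 (1.87), with medians of 0.890 in GCB, 1.24 in ABC, 0.993 in MCL and 1.01 in MZL/HCL lines. The MEC1 library stood apart, with 424 counts in its highest control probe against a median of 10 over the lines. All 10 genes exceeded the highest control probe in all 36 lines. In MEC1 the margin was 1.85 times for CCNE1, 1.94 times for MCM4 and 2.69 times for MCM7. Over the lines MCM4 was a median of 12.3 times its library's highest control probe and passed 10 times in 22 lines, so it was the gene closest to background.

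Markers were read before the types were compared. Of 8 B-cell markers 6 were measured, and their summed level ran from 4554 CPM in MEC1 to 81185 CPM in KARPAS1718. Summed markers of T and NK cells (5 of 7 measured) ran from 17.3 to 725 CPM, of myeloid cells (6 of 6) from 27.4 to 476 CPM, of epithelial cells (5 of 5) from 446 to 2634 CPM and of stromal and endothelial cells (5 of 6) from 18.7 to 1129 CPM. CCND1, the gene translocated in mantle cell lymphoma, was at 2051 CPM or more in 4 of the 9 MCL lines and at 91.2 CPM or less in JEKO1, REC1, SP49, SP53 and UPN1. DOHH2, placed with the GCB lines, had 1750 CPM of the ABC marker IRF4 and 5.36 CPM of the GCB marker MYBL1, while its 326 CPM of the GCB marker MME lay above the medians of ABC (94.5), MCL (35.6) and MZL/HCL lines (111) and below that of GCB lines (1333). At least 1 of these markers goes against the type of the 6 lines named in the last 2 sentences, so type results are given with and without them. All 5 GCB and all 5 ABC markers were measured. The GCB marker LMO2 went the other way, with medians of 10.3 CPM in GCB and 42.2 CPM in ABC lines. The ABC marker CCND2 hardly differed (41.7 and 42.7 CPM). The other GCB markers had higher medians in GCB than in ABC lines, and the other ABC markers the reverse. Summed ABC markers had medians of 345 CPM in GCB, 3237 in ABC, 1981 in MCL and 3136 CPM in MZL/HCL lines. Of 3 MZL/HCL markers 2 were measured. ANXA1 had a median of 10.3 CPM in MZL/HCL and 2.87 CPM in GCB lines, but was highest in SUDHL16, a GCB line, at 6068 CPM. IL2RA had medians of 83.2 CPM in MZL/HCL and 100 CPM in GCB lines. SUDHL16 stayed in the GCB group, so the 6 are not the only lines with a marker against their type. The identity of the lines was not tested beyond these markers, nor was it tested whether the CCND1 target reads all transcripts of that gene.

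Among the helicase subunits, MCM2 ran from 180 CPM in MEC1 through a median of 669 to 2005 CPM in RIVA. By type its median was 639 CPM in GCB, 438 in ABC, 1019 in MCL and 783 in MZL/HCL lines. The pooled SD within types was 0.753 log2 units, and every type held lines on both sides of the overall median. MCM3 ran from 288 CPM in SUDHL2 through 782 to 3571 CPM in SUDHL6, 1.69 times the next line. Its type medians were 777 CPM in GCB, 786 in ABC, 1245 in MCL and 923 in MZL/HCL lines, and the groups overlapped.

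MCM5 had a median of 1950 CPM, with 406 CPM in MEC1 at the bottom and 6906 CPM in KARPAS1718 at the top. GCB lines ran from 590 CPM in DOHH2 through a median of 1604 to 3289 CPM in SUDHL6, and MCL lines from 1375 CPM in MINO through 2571 to 5137 CPM in SP49. The 5 ABC lines had 5162 CPM in RIVA, 3384 in HBL1, 1801 in U2932, 1569 in TMD8 and 1159 in SUDHL2. The 5 MZL/HCL lines had 6906 CPM in KARPAS1718, 2829 in VL51, 2669 in SSK41, 1950 in HAIR_M and 1253 in HC_1. The lowest values after MEC1 were those of DOHH2 and RCK8 (791 CPM), and all 4 types overlapped.

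MCM7 was concentrated in a few lines. JEKO1 had 355 CPM, RIVA 298 CPM and KARPAS1718 259 CPM, against a median of 63.2 CPM and a lowest value of 18.1 CPM in RCK8. These 3 lines belong to 3 different types, and the next in order were the MCL lines REC1 at 164 CPM and GRANTA519 at 157 CPM. Within ABC, RIVA was far above U2932 at 55.7, SUDHL2 at 30.8, TMD8 at 25.2 and HBL1 at 19.5 CPM, while GCB lines stayed between 18.3 and 115 CPM.

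MCM4 followed another order. Its highest line was OCILY7 with 61.4 CPM, followed by RCK8 with 46.8 and MEC1 with 37.5 CPM, and its lowest was JVM2 with 4.41 CPM from 34 counts (95% Poisson interval 3.05 to 6.16 CPM). RIVA and KARPAS1718, which were among the 3 highest lines for MCM5 and MCM7, had 8.04 and 6.16 CPM of MCM4. WSU_DLCL2, which was among the 5 lowest lines for 7 of the 10 genes, was among the 5 highest for MCM4 with 29.7 CPM. Counting error was 2.25% of the variance of MCM4 and less for each of the other 9 genes.

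PCNA, the clamp, ran from 287 CPM in WSU_DLCL2 through 1565 to 3788 CPM in SUDHL6, with RIVA at 3285 CPM. Its MCL lines were the tightest group of this gene, from 1175 CPM in MAVER1 to 2679 CPM in SP49 with an SD of 0.428 log2 units, against 0.516 in MZL/HCL, 0.980 in GCB and 1.00 in ABC lines. RRM2, the ribonucleotide reductase subunit, ran over a wider range, from 305 CPM in WSU_DLCL2 through 1671 to 6762 CPM in SUDHL6. In ABC lines RRM2 had 2238 CPM in RIVA, 958 in TMD8, 429 in HBL1, 380 in U2932 and 356 in SUDHL2. In MCL lines it ran from 1063 CPM in MINO through 2802 to 4114 CPM in UPN1, and in GCB lines from 305 through 1884 to 6762 CPM. Only RIVA among the ABC lines exceeded the GCB median of RRM2, and 4 of the 5 ABC lines lay below every MCL line.

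E2F1, the transcription factor, varied most, with an SD of 1.5 log2 units (95% interval 1.22 to 1.96) and a 116-fold range. TOLEDO had 1173 CPM, 2.38 times the next line, SUDHL6, and FARAGE had 10.1 CPM from 94 counts (95% Poisson interval 8.17 to 12.4 CPM). RCK8, the other diffuse large B-cell line outside the subtypes, had 387 CPM. Type medians of E2F1 were 178 CPM in GCB, 97.5 in ABC, 134 in MCL and 178 in MZL/HCL lines, and no ABC line exceeded the 154 CPM of RIVA. The SD of the other 9 genes ran from 0.820 for MCM3 to 1.32 for CCNE1, against a median of 1.20 over the 2406 genes tested, so MCM2, MCM3, MCM4, MCM5, MCM7, PCNA, RRM2 and CCNE2 varied less than the median gene.

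**Figure D1:**
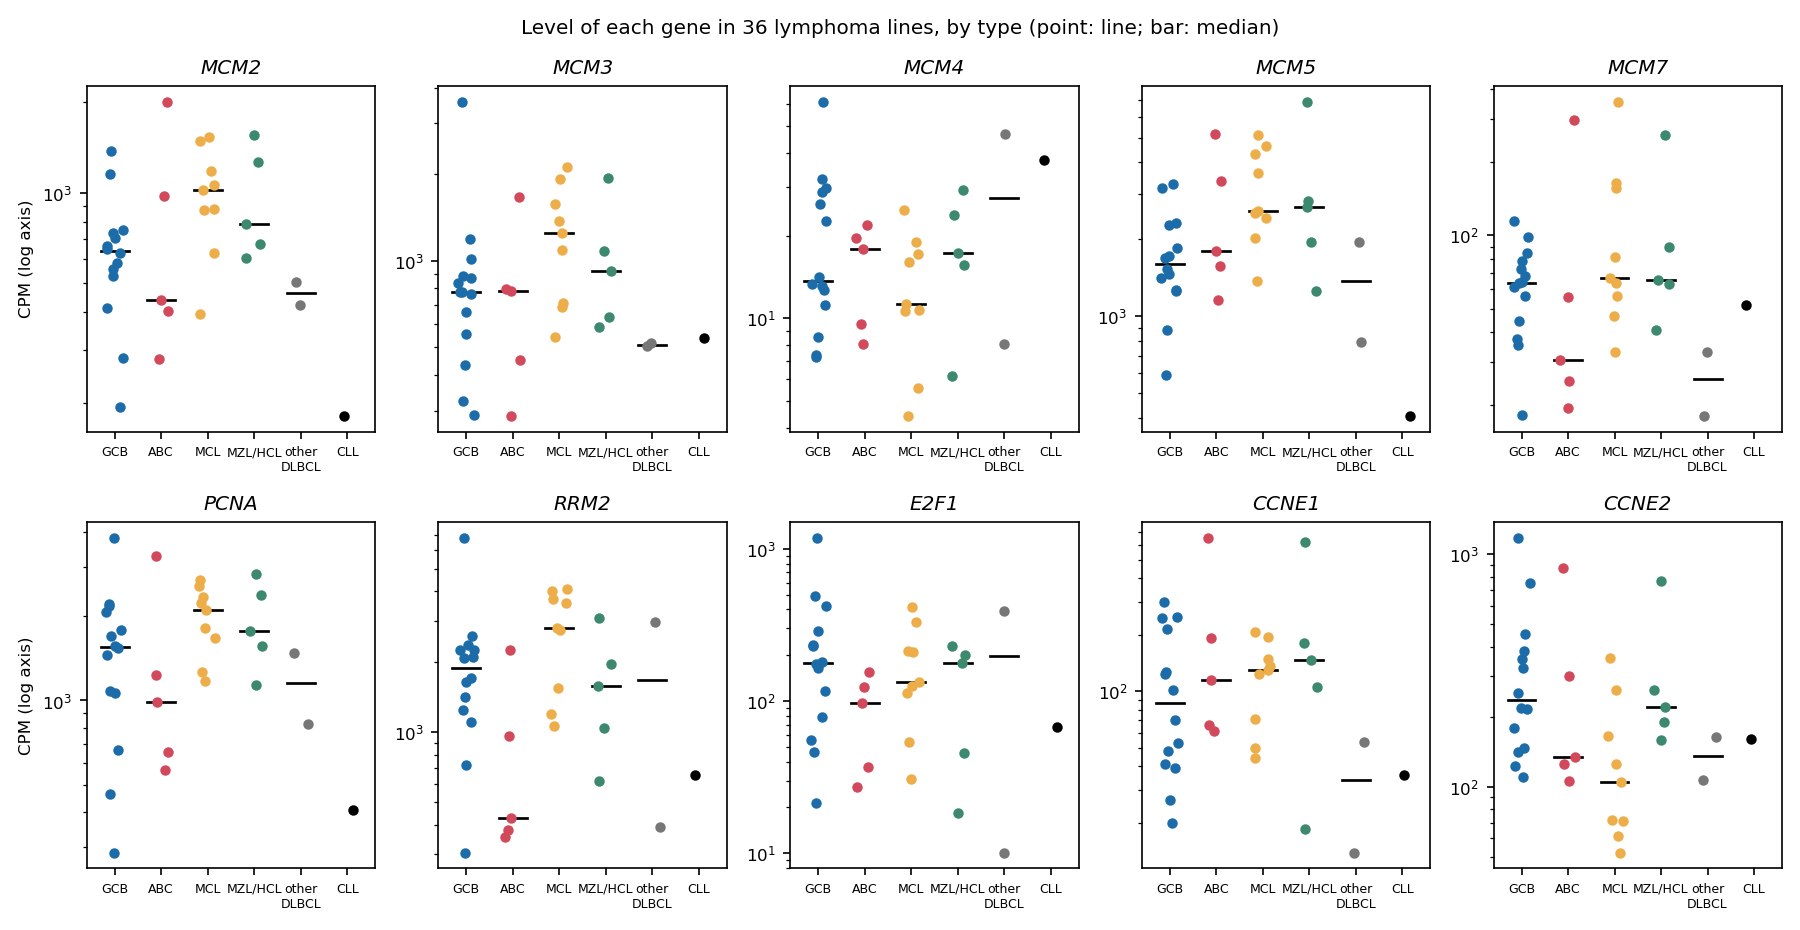
Level of each of the 10 genes in CPM (log axis) in 36 lines, grouped by lymphoma type; each point is 1 line and each bar the median of a group of 2 or more lines. Types overlap for every gene. MCM7 is highest in 3 lines of 3 types, followed by the MCL lines REC1 and GRANTA519. TOLEDO stands at 1173 CPM of E2F1.

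The E-type cyclins had different lowest and highest lines. CCNE1 ran from 13.9 CPM in RCK8 through 110 to 653 CPM in RIVA, with KARPAS1718 at 623 CPM. CCNE2 ran from 52.2 CPM in MINO through 172 to 1171 CPM in SUDHL6, with RIVA at 875 CPM, KARPAS1718 at 763 CPM and OCILY1 at 753 CPM. In MCL lines CCNE2 was 356 CPM in GRANTA519, 262 in SP53, 165 in UPN1, 126 in SP49, 105 in MAVER1, 71.9 in REC1, 71.1 in JVM2, 61.5 in JEKO1 and 52.2 in MINO. GCB lines ran from 110 CPM in OCILY18 through 236 to 1171 CPM, so 5 of the 9 MCL lines lay below every GCB line for CCNE2.

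The ratio of CCNE2 to CCNE1 depends on the capture of each target and is used only to set lines side by side. On the log2 scale it ran from -1.52 in REC1 to 4.15 in TOLEDO. Its median was 1.82 in GCB lines, 0.79 in ABC, 0.58 in MZL/HCL and 0.23 in MCL lines. TOLEDO combined 19.8 CPM of CCNE1 with 353 CPM of CCNE2, and REC1 combined 206 CPM of CCNE1 with 71.9 CPM of CCNE2. RIVA and KARPAS1718 were high in both cyclins.

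**Figure D2:**
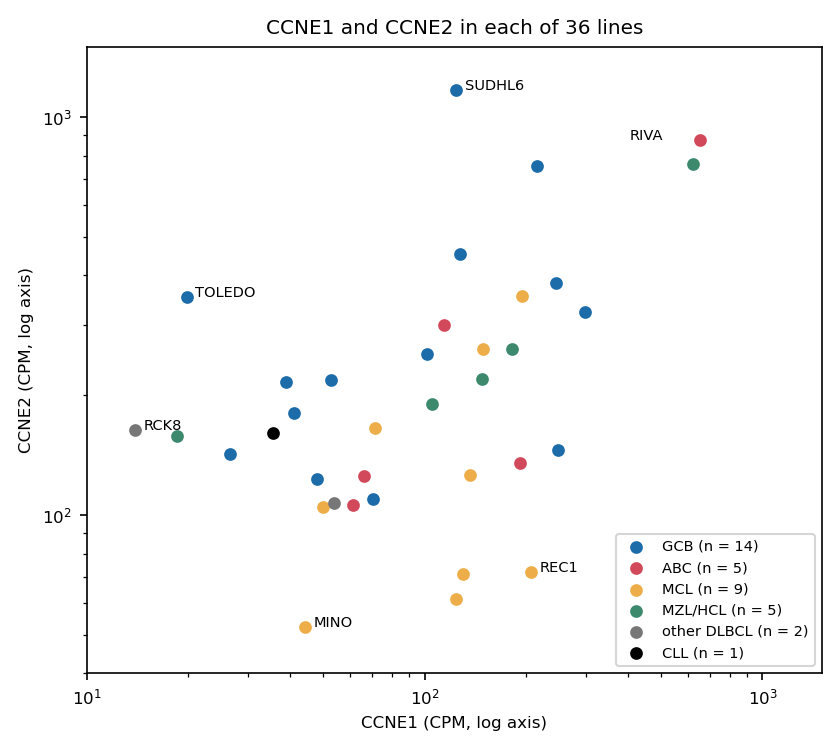
CCNE2 against CCNE1 in CPM (both axes log), 1 point per line, coloured by lymphoma type. RIVA and the MZL/HCL point beside it, KARPAS1718, are high in both, TOLEDO and RCK8 are low in CCNE1 only, and REC1 is low in CCNE2 relative to its 206 CPM of CCNE1.

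Some lines were at an extreme for several of the genes. RIVA was among the 5 highest lines for 7 of the 10 genes, and SUDHL6, KARPAS1718 and GRANTA519 for 5 each. These 4 lines come from 4 types, ABC, GCB, MZL/HCL and MCL. The proliferation gene MKI67 ranked GRANTA519 at 1 and SUDHL6 at 2 of 36, with KARPAS1718 at 7 and RIVA at 8. At the other end, WSU_DLCL2 was among the 5 lowest lines for 7 genes, SUDHL2 for 6, DOHH2 for 5 and MEC1 for 4. SUDHL2 had the lowest MKI67 of all lines at 92.9 CPM, WSU_DLCL2 ranked 33, MEC1 26 (461 CPM) and DOHH2 24 (562 CPM). In lysates a lower share of cycling cells and less RNA per cell cannot be told apart.

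**Figure D3:**
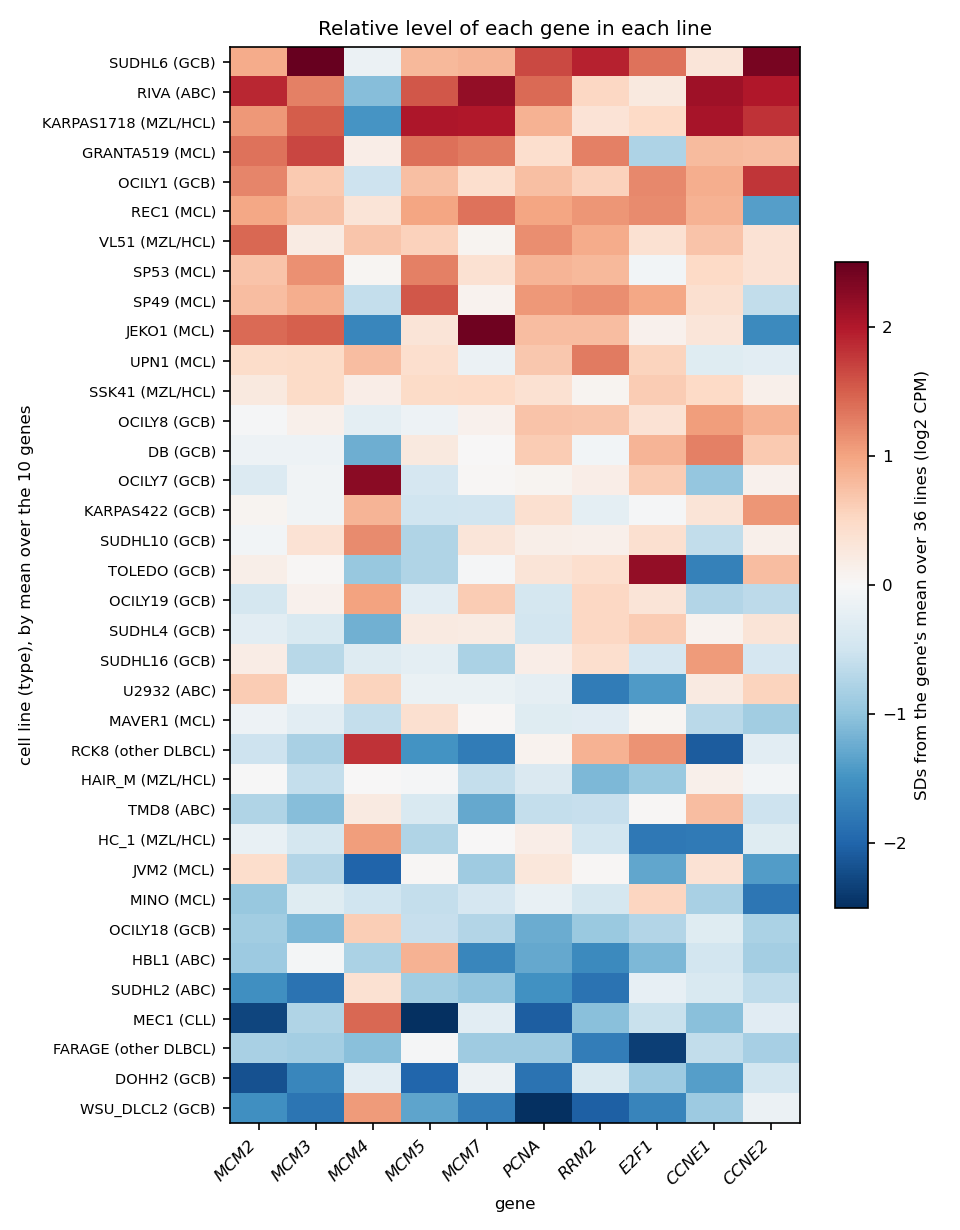
Level of each gene (columns) in each of 36 lines (rows, with type), as SDs from the gene's mean log2 CPM, lines ordered by their mean over the 10 genes. SUDHL6, RIVA and KARPAS1718 are at the top and WSU_DLCL2 and DOHH2 at the bottom, while MCM4 goes its own way in RIVA, KARPAS1718, JEKO1 and WSU_DLCL2.

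Whether lymphoma type sets the level of these genes was examined in 1 fit of 33 lines from the 4 types with edgeR's quasi-likelihood test, Benjamini-Hochberg adjusted over 2406 genes at a threshold of 0.05. In the test of any difference among the types 0 of the 10 genes passed, against 151 of all genes (6.28%). RRM2 came nearest (adjusted p = 0.208, p = 0.0348), followed by MCM5 (adjusted p = 0.225, p = 0.0395). Without the 6 lines named with the markers, 0 of the 10 passed this test by edgeR, against 5.44% of all genes called. Of the 10 genes 0 then had an unadjusted p under 0.05, and E2F1 came nearest (adjusted p = 0.311). The 6 contrasts between pairs of types share lines, so their values are set side by side and not counted together.

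In no contrast did any of the 10 genes pass by edgeR, by the DESeq2 Wald test or by limma-voom. For ABC against GCB the count was 0 of 10 against 1.75% of all genes, with 2 genes at an unadjusted p under 0.05 against 14.9% of all genes. For MCL against GCB it was 0 of 10 against 4.36%, with 2 unadjusted against 18.8%. For MZL/HCL against GCB it was 0 of 10 against 3.28%, with 1 unadjusted against 12.9%. The contrasts with GCB lines, the largest group, called the most genes. For ABC against MCL it was 0 of 10 against 0.374%, with 1 unadjusted against 13.7%, and for MZL/HCL against MCL it was 0 of 10 against 0.582%, with 1 unadjusted against 7.94%. For MZL/HCL against ABC it was 0 of 10 against 0% of all genes, with 0 unadjusted against 7.52%.

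RRM2, E2F1, MCM5 and CCNE2 were the genes with an unadjusted p under 0.05 in a contrast. RRM2 was lower in ABC than in MCL lines by a log2 difference of -1.66 ± 0.55 (SE; 5 against 9 lines, edgeR adjusted p = 0.201), and lower in ABC than in GCB lines by -1.22 ± 0.51 (adjusted p = 0.256). Without RIVA, the ABC line with the most RRM2, the ABC mean must fall, so this fit is a description only. The difference from MCL lines was then -2.37 (edgeR adjusted p = 0.0485), which passed, and that from GCB lines -1.94 (adjusted p = 0.0563). Without any 1 of the other ABC lines, the difference from MCL lines was -1.69 to -1.46 (edgeR adjusted p from 0.378 to 0.465). The difference from GCB lines was -0.94 without SUDHL6 (edgeR adjusted p = 0.368). E2F1 was lower in ABC than in GCB lines by -1.58 ± 0.72 (edgeR adjusted p = 0.290). This difference was -1.13 without TOLEDO, the line with the most E2F1 (edgeR adjusted p = 0.421), and -1.17 by limma-voom with all lines (adjusted p = 0.488). Beside these values, MKI67 was 1224 CPM in RIVA, 331 in TMD8, 188 in HBL1, 153 in U2932 and 92.9 CPM in SUDHL2, so that HBL1, U2932 and SUDHL2 held ranks 34, 35 and 36 of 36, and its part in the differences was not tested.

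MCM5 was higher in MCL than in GCB lines by 0.85 ± 0.31 (SE; 9 against 14 lines, edgeR adjusted p = 0.106), and higher in MZL/HCL than in GCB lines by 0.83 ± 0.37 (adjusted p = 0.307). Without KARPAS1718 the MCM5 difference between MZL/HCL and GCB lines was 0.30 (edgeR adjusted p = 0.843). The difference between MCL and GCB lines passed with upper-quartile factors (1.02, adjusted p = 0.0269), with library size alone (1.04, adjusted p = 0.0259) and with the log2 TMM factor as a covariate (1.04, adjusted p = 0.0236). CCNE2 was lower in MCL than in GCB lines by -1.29 ± 0.47 (edgeR adjusted p = 0.108), and higher in MZL/HCL than in MCL lines by 1.17 ± 0.57 (adjusted p = 0.611), a difference that was 0.56 without KARPAS1718 (adjusted p = 0.718). Without the 6 lines named with the markers, 0 of the 10 genes passed in any contrast by edgeR. Beside this, 1.70% of all genes passed for ABC, 3.49% for MCL and 3.95% for MZL/HCL, each against GCB lines, and at most 0.0831% in the other contrasts. The MCM5 difference between MCL and GCB lines was then 0.52 ± 0.40 (4 against 13 lines, edgeR adjusted p = 0.539) and that of CCNE2 -1.30 ± 0.67 (adjusted p = 0.361), and RRM2 in ABC against MCL lines was -1.16 ± 0.64 (adjusted p = 0.370).

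The wider pathway was counted from 4 lists of other replication genes, of which 48 were measured: 4 of 22 for licensing and origin firing, 13 of 27 for nucleotide supply, 14 of 26 for the fork and 17 of 22 for G1/S control. For MCL against GCB lines 3 of the 48 passed (6.25%, beside 4.36% of all genes), for ABC against GCB lines 1 passed (2.08%, beside 1.75%), and in the other 4 contrasts 0 passed by edgeR. CDKN1C, which encodes the CDK inhibitor p57, was higher in MCL by 3.92 ± 0.67 (SE; medians 119 against 11.2 CPM, edgeR adjusted p = 0.000441) and higher in ABC by 3.25 ± 0.72 (median 36.2 CPM, adjusted p = 0.0106). RRM2B, the alternative small subunit of ribonucleotide reductase, was lower in MCL by -1.36 ± 0.36 (147 against 337 CPM, edgeR adjusted p = 0.0245). E2F5, a repressive E2F, was lower in MCL by -1.48 ± 0.45 (350 against 1080 CPM, edgeR adjusted p = 0.0497). Without the 6 lines named with the markers, CDKN1C still passed, at 2.71 ± 0.73 in MCL (edgeR adjusted p = 0.0286) and 3.35 ± 0.69 in ABC (adjusted p = 0.00982). RRM2B at -1.10 ± 0.50 (edgeR adjusted p = 0.287) and E2F5 at -1.28 ± 0.65 (adjusted p = 0.345) did not pass. CDKN1A and TYMP then passed for MCL against GCB lines, and CDKN1A for MZL/HCL against GCB lines, calls that were absent with all 33 lines. In that fit 3 of the 48 passed for MCL against GCB lines, beside 3.49% of all genes. For MZL/HCL against GCB lines 1 of the 48 passed, beside 3.95%. Leaving out 1 line, CDKN1C did not pass in ABC without RIVA (adjusted p = 0.0612 by edgeR), and RRM2B did not pass without DB or without SP49 (adjusted p up to 0.0577). E2F5 did not pass without any 1 of 15 lines: DB, GRANTA519, JEKO1, JVM2, MINO, OCILY1, OCILY8, REC1, SP49, SP53, SUDHL16, SUDHL4, SUDHL6, UPN1 or WSU_DLCL2 (log2 differences from -1.87 to -1.31, edgeR adjusted p up to 0.0957).

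Shared variation across the 36 lines was read from pairs of genes. Pearson r and Spearman rho of log2 CPM were tested for all 45 pairs by two-sided permutation tests of 100000 resamples, with Benjamini-Hochberg adjustment over the 45. A pair passed where both adjusted p-values were under 0.05, and 31 of 45 did, 29 with a positive and 2 with a negative r. The share of all pairs of genes that would pass the same rule was not computed. The median rho over the 45 pairs was 0.47, against -0.00206 over the 2893215 pairs of all genes tested. All 15 pairs among MCM2, MCM3, MCM5, MCM7, PCNA and RRM2 passed, with rho from 0.54 to 0.89 and a median of 0.73.

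The tightest pair joined a helicase subunit and the clamp. MCM2 and PCNA had r = 0.89 (permutation p = 1e-05, the smallest these permutations give, adjusted p = 4.1e-05) and rho = 0.89 (p = 1e-05, adjusted p = 4.5e-05). When MEC1 and DOHH2, at the extremes of MCM2, were left out, r was 0.85. MCM3 and MCM7 had r = 0.78 and rho = 0.85 (permutation adjusted p = 4.1e-05 and 4.5e-05), and r = 0.81 without SUDHL6 and SUDHL2. MCM5 paired with CCNE1 at r = 0.73 and rho = 0.72 (permutation adjusted p = 4.1e-05 and 7.5e-05), and r = 0.69 without MEC1 and KARPAS1718. These 3 pairs changed little without their extreme lines.

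E2F1 passed with 4 of the 8 genes other than MCM4 over the 36 lines, and with 4 of 8 over the 33 lines of the 4 types as measured. In deviations from the type mean over those 33 lines, permuted without allowance for the means removed, it passed with 7 of 8, CCNE1 excepted. Over the 36 lines its r was 0.69 with RRM2 (rho 0.66, permutation adjusted p = 0.0001 and 0.00017), 0.57 with PCNA (rho 0.55, adjusted p = 0.00087 and 0.0016) and 0.46 with MCM3 (rho 0.49, adjusted p = 0.0082 and 0.0057). Leaving out the 2 most extreme lines of the other gene gave r of 0.69, 0.52 and 0.43. The pair of MCM7 and E2F1 passed at r = 0.36 but not without any 1 of FARAGE, HAIR_M, HBL1, JVM2, KARPAS1718, OCILY1, OCILY18, REC1, SUDHL6 or WSU_DLCL2, where r over all lines left out in turn ran from 0.31 to 0.45. MCM2, MCM5 and both cyclins did not pass with E2F1, at r = 0.36, 0.24, 0.16 (CCNE1) and 0.33 (CCNE2). MCM2 with E2F1 passed without any 1 of GRANTA519, JVM2, MINO, OCILY7, RCK8, SUDHL4 or U2932, with r between 0.31 and 0.41 over the lines left out, and E2F1 with CCNE2 passed without MINO, REC1 or U2932 (r from 0.26 to 0.39).

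The 2 cyclins were only loosely paired. CCNE1 and CCNE2 had r = 0.43 and rho = 0.39 (permutation adjusted p = 0.014 and 0.03), which no longer passed without any 1 of DB, GRANTA519, KARPAS1718, OCILY1, OCILY8 or RIVA (r from 0.35 to 0.49 over the lines left out). In deviations from the type mean over the 33 lines, r between CCNE2 and MCM2 was 0.71, against 0.43 over 33 lines as measured, and between CCNE2 and MCM5 it was 0.70 against 0.35. CCNE2 then passed with 8 of 8 genes other than MCM4, against 4 of 8 over the same 33 lines as measured. The difference between these r values was not tested. Over all 36 lines PCNA with CCNE2 (r = 0.43) did not pass without SUDHL6, and MCM7 with CCNE2 (r = 0.36) did not pass without any 1 of 12 lines: FARAGE, GRANTA519, HBL1, JVM2, KARPAS1718, OCILY1, OCILY18, RIVA, SUDHL16, SUDHL2, SUDHL6 or TMD8.

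MCM4 stood apart from the other subunits of its own complex. Its r was -0.32 with MCM2, -0.24 with MCM3, -0.49 with MCM5 and -0.30 with MCM7, of which the pair with MCM5 passed (rho -0.52, permutation adjusted p = 0.0049 and 0.0031). It also passed with CCNE1 at r = -0.47 (rho -0.44, permutation adjusted p = 0.0072 and 0.012), and r was -0.54 and -0.45 without OCILY7 and JVM2. Over the 36 libraries the rho of MCM4 with the log2 TMM factor was 0.54, while for the other 9 genes it ran from -0.47 (CCNE1) to -0.17 (E2F1). With the count of the library's highest control probe, rho was 0.35 for MCM4 and from -0.36 (CCNE1) to 0.28 (E2F1) for the others. After regression of each gene on the log2 TMM factor, r was -0.33 for MCM4 with MCM5 and -0.29 with CCNE1, and neither passed. Neither passed in deviations from the type mean, at -0.33 and -0.40. Of the 15 pairs among the 6 closely tied genes, 14 passed after the same regression, the exception being MCM5 with RRM2 at r = 0.35.

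**Figure D4:**
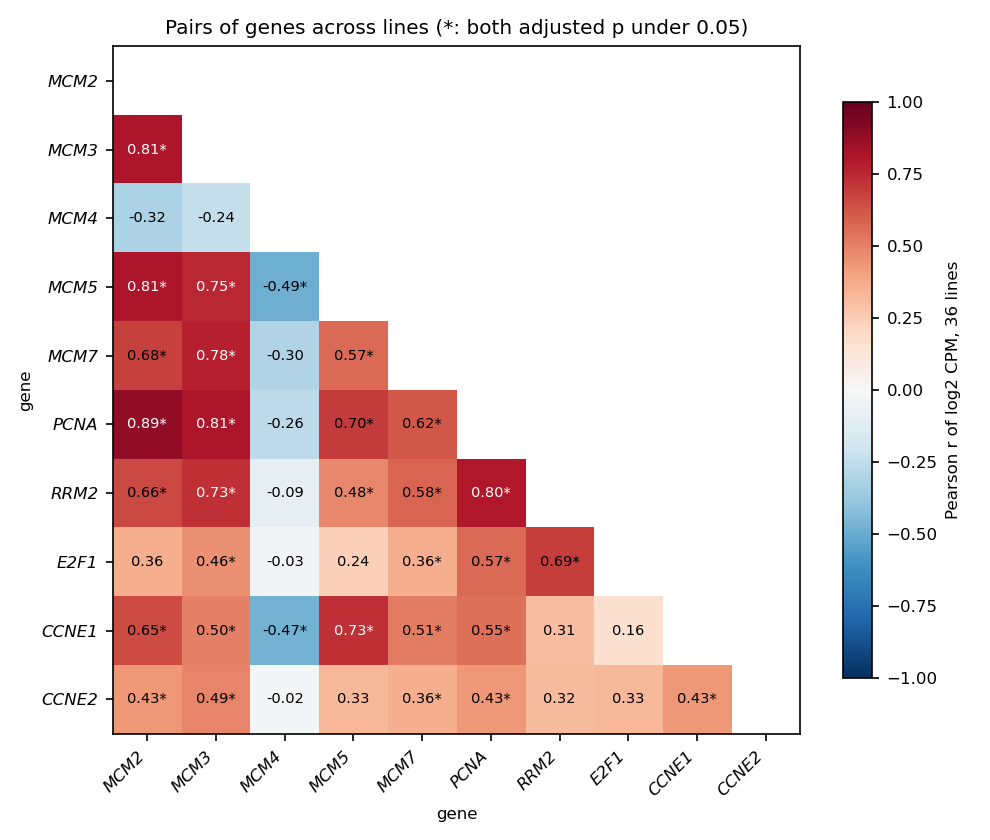
Pearson r of log2 CPM over 36 lines for each of the 45 pairs of genes; an asterisk marks pairs whose r and rho both had an adjusted p under 0.05. Pairs without MCM4 are all positive, up to 0.89 for MCM2 and PCNA, and all 9 pairs with MCM4 are below 0.

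The slope of every gene on E2F1 was fitted over the 36 lines with edgeR's quasi-likelihood test, as the change in log2 level of a gene per log2 unit of E2F1. Of the other 9 genes 4 rose with E2F1 and 0 fell, against 8.61% and 5.28% of all genes, and their median slope was 0.28 against -0.03 over all genes. RRM2 had the steepest slope, 0.48 ± 0.10 (SE, 36 lines, edgeR adjusted p = 0.00143), followed by CCNE2 at 0.33 ± 0.11 (adjusted p = 0.0477), PCNA at 0.29 ± 0.08 (adjusted p = 0.0144) and MCM3 at 0.27 ± 0.09 (adjusted p = 0.0380). CCNE1 at 0.29 ± 0.17 (edgeR adjusted p = 0.233), MCM7 at 0.28 ± 0.13 (0.143), MCM2 at 0.18 ± 0.09 (0.179), MCM5 at 0.15 ± 0.10 (0.283) and MCM4 at 0.01 ± 0.11 (0.981) did not pass.

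RRM2 and PCNA kept their calls whichever line was left out, with slopes from 0.43 to 0.54 and from 0.26 to 0.33. The MCM3 call was lost without any 1 of DOHH2, FARAGE, HAIR_M, HC_1, JVM2, SUDHL6 or WSU_DLCL2, where the count fell to 2, and its slope ran from 0.19 to 0.31 over the lines left out (edgeR adjusted p up to 0.154). The CCNE2 call was lost without any 1 of 18 lines, which were those 7 and HBL1, KARPAS1718, OCILY1, OCILY18, OCILY8, SP53, SSK41, SUDHL2, SUDHL4, TMD8 and TOLEDO, with slopes from 0.24 to 0.37 (edgeR adjusted p up to 0.166). With the log2 TMM factor as a covariate, with upper-quartile factors or with library size alone, 2 genes passed, RRM2 and PCNA. The share of all genes that rose in these fits was not computed.

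The same slopes were fitted on MKI67. Against MKI67, 8 of the 10 genes rose and 0 fell, beside 16.1% and 15.3% of all genes, and their median slope was 0.45 against 0.02 over all genes. RRM2 rose by 0.74 ± 0.11 (SE, edgeR adjusted p = 7.76e-06), MCM7 by 0.67 ± 0.12 (adjusted p = 7.63e-05) and MCM3 by 0.53 ± 0.08 (adjusted p = 1.29e-05). CCNE1 at 0.50 ± 0.18 (edgeR adjusted p = 0.0292), PCNA at 0.47 ± 0.10 (0.000518), MCM2 at 0.42 ± 0.09 (0.00134), MCM5 at 0.39 ± 0.10 (0.00731) and CCNE2 at 0.38 ± 0.14 (0.0395) also rose. E2F1, at 0.25 ± 0.23 (edgeR adjusted p = 0.422), and MCM4, at -0.16 ± 0.14 (0.397), did not pass. The 2 slopes share all their lines, and whether they differ was not tested.

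The cyclin calls against MKI67 were the least stable. CCNE1 did not pass without KARPAS1718 or without RIVA, and CCNE2 did not pass without any 1 of HBL1, KARPAS1718, RIVA, SUDHL2, SUDHL6 or TMD8, with slopes from 0.42 to 0.57 and from 0.26 to 0.46 over the lines left out. With the log2 TMM factor as a covariate 5 genes passed: MCM2, MCM3, MCM7, PCNA and RRM2. The same 5 passed with library size alone, and 4 with upper-quartile factors, when MCM2 was at 0.33 with an edgeR adjusted p of 0.0563. Shares of all genes that rose under these settings were not computed.

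**Figure D5:**
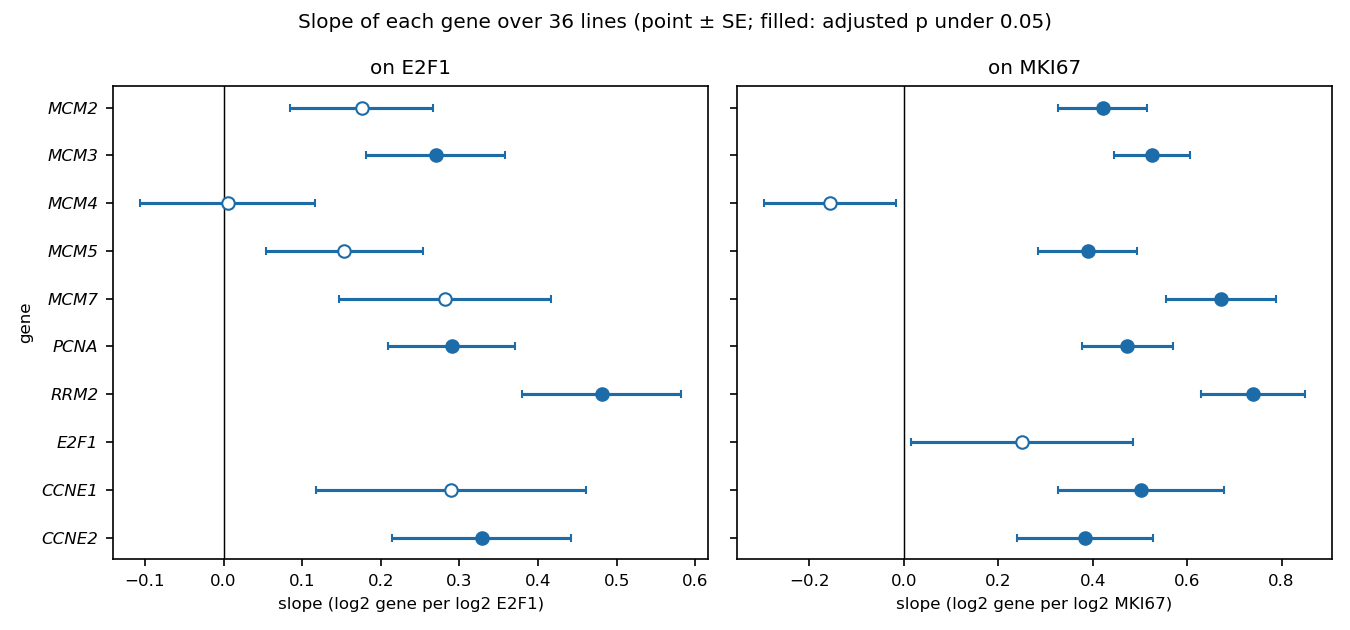
Slope of each gene (log2 units per log2 unit) on E2F1 (left) and on MKI67 (right) over 36 lines, point and SE; filled points have an adjusted p under 0.05. RRM2 is the steepest on both, MCM4 is at 0.01 and -0.16, and E2F1 on MKI67 is open at 0.25.

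The other replication genes on the 4 lists were read in the same fits. With E2F1, 4 of 4 licensing genes rose (CDC6, ORC6, CDC7 and MCM6), against 8.61% of all genes that rose and 5.28% that fell. CDC6, the helicase loader, had a slope of 0.40 ± 0.07 (SE, edgeR adjusted p = 0.000561), and MCM6, the sixth helicase subunit, 0.28 ± 0.09 (adjusted p = 0.0367). In nucleotide supply 6 of 13 rose with E2F1 and 1 fell: RRM1, the large subunit that pairs with RRM2, had 0.33 ± 0.09 (edgeR adjusted p = 0.0144), and TYMP, which degrades thymidine, had -0.59 ± 0.19 (adjusted p = 0.0367). At the fork 8 of 14 rose, led by FEN1, the flap endonuclease, at 0.41 ± 0.07 (edgeR adjusted p = 0.000521). In G1/S control 3 of 17 rose (CDC25A, SKP2 and E2F3) and 2 fell (FBXW7 and CCNA1). FBXW7, the ubiquitin ligase subunit that targets cyclin E, had a slope of -0.26 ± 0.08 (edgeR adjusted p = 0.0222). Without SUDHL6 the calls of RRM1, CDC7, E2F3, TOP2A and CTPS1 were lost, FBXW7 was lost without HC_1 and CCNA1 without HAIR_M. MCM6 was lost without any 1 of DOHH2, HAIR_M, HBL1, HC_1, OCILY1, SUDHL6 or WSU_DLCL2 (slopes from 0.23 to 0.32), and TYMP without any 1 of DB, FARAGE, HAIR_M, HBL1, JVM2, OCILY1, SUDHL6 or TOLEDO (slopes from -0.69 to -0.50). RFC3 was lost without any 1 of 13 lines and DCK without any 1 of 17, SUDHL6 among them for both genes.

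With MKI67, 3 of 4 licensing, 7 of 13 nucleotide supply, 9 of 14 fork and 8 of 17 G1/S genes rose, and 1 gene, CCNA1, fell, beside the 16.1% of all genes that rose and the 15.3% that fell. CCNA2, the cyclin of S and G2 phase, rose by 0.55 ± 0.07 (SE, edgeR adjusted p = 9.57e-07), and RRM1 by 0.58 ± 0.09 (adjusted p = 1.01e-05), beside 0.74 for RRM2. Thymidine kinase TK1 rose by 0.61 ± 0.11 (edgeR adjusted p = 0.000149) and thymidylate synthase TYMS by 0.65 ± 0.13 (adjusted p = 0.000336). Median slopes of the 4 lists ran from 0.26 to 0.44 on MKI67, with 0.45 for the 10 genes and 0.02 over all genes. The calls of RFC4 and TFDP1 were lost without SUDHL6 and that of CCNA1 without HAIR_M (slopes of CCNA1 from -0.96 to -0.37 over the lines left out).

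The genes whose order of lines was most like each of the 10 are given as a description over the 36 lines, which share library depth and scaling. For MCM2 they were PCNA (rho 0.89), MCM3 (0.82) and DNAJC9 (0.79), a histone chaperone. For PCNA they were MCM2 (0.89), CDC6 (0.84) and MCM3 (0.83), and for MCM3 they were MCM7 (0.85), PCNA (0.83) and MCM2 (0.82). For MCM5 they were MCM3 (0.77), MCM2 (0.76) and DNAJC9 (0.76), and for MCM7 MCM3 (0.85), FKBP5 (0.81) and the maintenance methyltransferase DNMT1 (0.79). RRM2 was most like HELLS (0.82), SMC3 (0.81) and the exonuclease EXO1 (0.80). Those of E2F1 were 2 repair genes and a transcription factor: RAD51D (0.78), MSH6 (0.77) and TCF3 (0.76). Among those of CCNE1 were MCM5 (0.72) and RPA1 (0.71), and CCNE2 was most like CDC7 (0.66), MYBL1 (0.63) and TFDP1 (0.63), the dimer partner of E2F proteins. MCM4, the gene closest to background, was most like IL1RAP (0.76), SHC3 (0.72) and NOG (0.71), none of which is a replication gene.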

How the data were processed

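Targeted RNA-Seq gave 1 library for each of 36 lines, and the labels state 10000 cells per well. The authors deposited whole-number counts per gene, unscaled, and log2 values that equalled log2(count / 1 factor per library + 1) within 0.00527. The submitters' processing notes name hg38. Aligner, counter and strand setting: not given in the sources used here. Of the targets, 10 control probes (a median of 0.000209% and at most 0.0265% of counts) were left out of totals and tests.

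Counts were scaled by TMM factors in edgeR 4.0.16 (R 4.3.3), with log2 CPM at a prior count of 2. A gene was tested where 4 or more lines reached 10 CPM, which kept 2406 of 2549 genes and all 10 described. DESeq2 1.42.0 and limma 3.58.1 (voom) were alternatives. Adjustment was Benjamini-Hochberg, threshold 0.05. Permutation tests used 100000 resamples. SEs were derived from the estimate and its F statistic. The scripts were tested on simulated counts. The 95% Poisson intervals of single lines cover counting error only, and reads are not independent molecules. The 95% interval of an SD covers the sampling of lines and takes log2 levels as normal. P-values judge a difference, slope or correlation against the spread between lines.

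The 10 genes, the 4 lists and the lines' types were chosen with earlier results of these data known. Named genes were the 10, list genes past the threshold and, for each of the 10, the 3 genes with the highest rho, of which 1 is not reported here. Added after seeing the data were fits without MEC1, pairs over the 33 typed lines, types without the 5 MCL lines under 100 CPM of CCND1 and DOHH2, and list genes without each line in turn.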

Additional observations from a re-analysis of the deposited data

How the results depend on the processing

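No paired analysis was possible because each line is 1 culture with 1 library and the labels give no replicate numbers. For MCL against GCB lines 1 gene passed, MCM5, with upper-quartile factors, with library size alone and with the log2 TMM factor as a covariate, in place of 0. Leaving out 1 line gave 0 to 1 genes for ABC against MCL. Of the genes that rose with E2F1, 4 in the reported fit, 2 passed with upper-quartile factors, 2 with library size alone and 2 with the TMM covariate, and 2 to 4 when 1 line was left out. Of the 8 that rose with MKI67, 4 passed with upper-quartile factors, 5 with library size alone and 5 with the TMM covariate, and 6 to 8 when 1 line was left out. The cause was not tested, and the shares of all genes passing in these other fits were not computed. The slope of MCM4 on E2F1 was negative with limma-voom (-0.0178), with lymphoma type as a covariate (-0.0999) and in some fits without 1 line (-0.0542 to 0.0447), and its slope on MKI67 was 0.0300 with the TMM covariate; none of these passed.

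Pairs that passed, 31 as reported, numbered 21 with upper-quartile factors, 21 with library size alone, 22 after regression on the log2 TMM factor, 35 in deviations from type means, 34 on the authors' log2 values and 28 to 34 without 1 line. Of the results for single genes under other settings, 180 of 207 slopes, 247 of 279 pairs, 72 of 75 type differences and 50 of 50 SDs kept their direction and their side of the threshold or stayed within their interval. Fits that left out each line in turn are not in these counts. The slopes counted include those that did not pass in the reported fit. The type differences counted are those with an unadjusted p under 0.05 by edgeR. MCM4 was not tested at a filter of 50 CPM. Depth limited MCM4 most, with as few as 34 counts in a line. With 1 library per line, no replicate error could be estimated for differences between single lines.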
